A study of Mus musculus with 9 samples.

Results

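The clustered protocadherin genes of the mouse were described in brain tumor stem cells (BTSC) with and without a targeted Gpd1 gene. The members were chosen by gene symbol alone, as all rows named as alpha, beta or gamma isoforms, which gave 57 of the 21899 genes in the deposited table. They comprise 14 alpha, 22 beta and 21 gamma genes. On mm10 the clusters lie in this order on the plus strand of chromosome 18, alpha from 36930184 to 37187661, beta from 37264938 to 37524479 and gamma from 37661793 to 37841873.

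Clustered protocadherins are cell surface adhesion proteins that bind copies of themselves on neighbouring cells and are best known for giving neurons distinct surface identities. In the alpha and gamma clusters each isoform has its own promoter and first exon, which is spliced to constant exons shared by the whole cluster, whereas beta genes carry their coding sequence in a single exon and have no constant exons. The alternate isoforms are chosen differently from cell to cell, with a role for CTCF, cohesin and DNA methylation at their promoters, while the C-type isoforms at the end of the alpha and gamma clusters are controlled differently.

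Poly(A) RNA of 9 libraries was measured, 3 each from Gpd1 knockout (KO) BTSC made with Cas9 and sgRNA1, Gpd1 KO BTSC made with Cas9 and sgRNA2, and control BTSC for which the labels name no guide. Gpd1 encodes a cytosolic enzyme that interconverts dihydroxyacetone phosphate and glycerol-3-phosphate. The KO cells were selected with puromycin and expanded from colonies grown from a single cell, so the KO libraries come from clones, and the labels do not say whether the controls passed through these steps. The labels do not state that libraries of a group came from separate cultures, so p-values measure only the spread between these libraries.

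The summed normalized read counts were 39781901 to 41718732 per KO library and 41393139 to 42975283 per control library. Gpd1 itself stood at 3299, 1347 and 21351 in sgRNA1 KO replicates 1, 2 and 3 and at 10812, 10812 and 6945 in sgRNA2 KO replicates 1, 2 and 3, against 25106, 26566 and 25836 in the control libraries. All 6 KO libraries lay under all 3 controls, with the library labelled sgRNA1 KO replicate 3 at 82.6% of the control mean, and the difference was not called (log2 fold change -1.99, adjusted p = 0.0516 in limma, 0.0183 without that library). These RNA counts do not check the loss of the protein. Over all genes, the KO libraries nearest to the controls and to each other were replicate 3 of sgRNA1 KO and replicate 1 of sgRNA2 KO, and results that rest on them are given with and without them. The furthest from the controls were sgRNA1 KO replicates 1 and 2 and sgRNA2 KO replicate 2. Their Pearson correlations of log2 values with controls were 0.909 to 0.937, against 0.938 to 0.972 for the other KO libraries. Where these 3 are named together below, they are also those furthest from the controls over all genes. The stem cell markers Sox2 and Olig2, transcription factors of neural progenitors, were read at 11565 to 23374 and 26003 to 39961 in KO libraries, against 7105 to 8756 and 36225 to 38291 in controls. Nes, Cd44 and Vim of the same list fell, each with all 6 KO libraries below all 3 controls. Nes was read at 8451 to 24740 in KO and 37297 to 46053 in control libraries (log2 fold change -1.36). The log2 fold change was -1.51 for Cd44 and -0.93 for Vim. Prom1, which encodes the stem cell surface protein CD133, was near the floor in every library, at 3 to 31 in KO and 7 to 15 in control libraries.

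Over the clusters together, 16 members were higher and 1 was lower in KO than in control libraries by limma (adjusted p under 0.05), of 53 members with enough reads to test. Over all genes tested 19.1% were called higher and 20.2% lower. The 16 higher members were thus more than the background share, and the 1 lower member fewer. The median log2 fold change was 0.44 over all 53 members tested, against -0.01 over all genes tested. All 6 KO libraries lay above all 3 controls for 15 tested members (background 21.1%) and below them for 2 members, Pcdhac2 and Pcdhga12 (background 23.8%). The 4 members that were not tested are alpha genes with a mean under 10, namely Pcdha1, Pcdha4, Pcdha6 and the second of 2 gene IDs that carry the symbol Pcdha11 (ENSMUSG00000102206).

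The clusters differed in these counts. In the beta cluster 9 of 22 members rose and none fell, with a median log2 fold change of 0.95. In the alpha cluster 5 of 10 tested members rose and 1 fell, with a median of 1.41. In the gamma cluster 2 of 21 rose and none fell, with a median of -0.23. Leaving out sgRNA1 KO replicate 3 and sgRNA2 KO replicate 1 gave 23 higher (background 23.3%) and 2 lower members (25%) over the clusters. Leaving out 1 control at a time gave 10 higher members without control replicate 1 (background 12.8%), 9 without replicate 2 (9.26%) and 7 without replicate 3 (9.85%), and no lower member. Of the 17 called members, 7 were called under every alternative tried, namely Pcdha3, Pcdha12, Pcdhb2, Pcdhb3, Pcdhb4, Pcdhb8 and Pcdhb10.

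**Figure D1:**
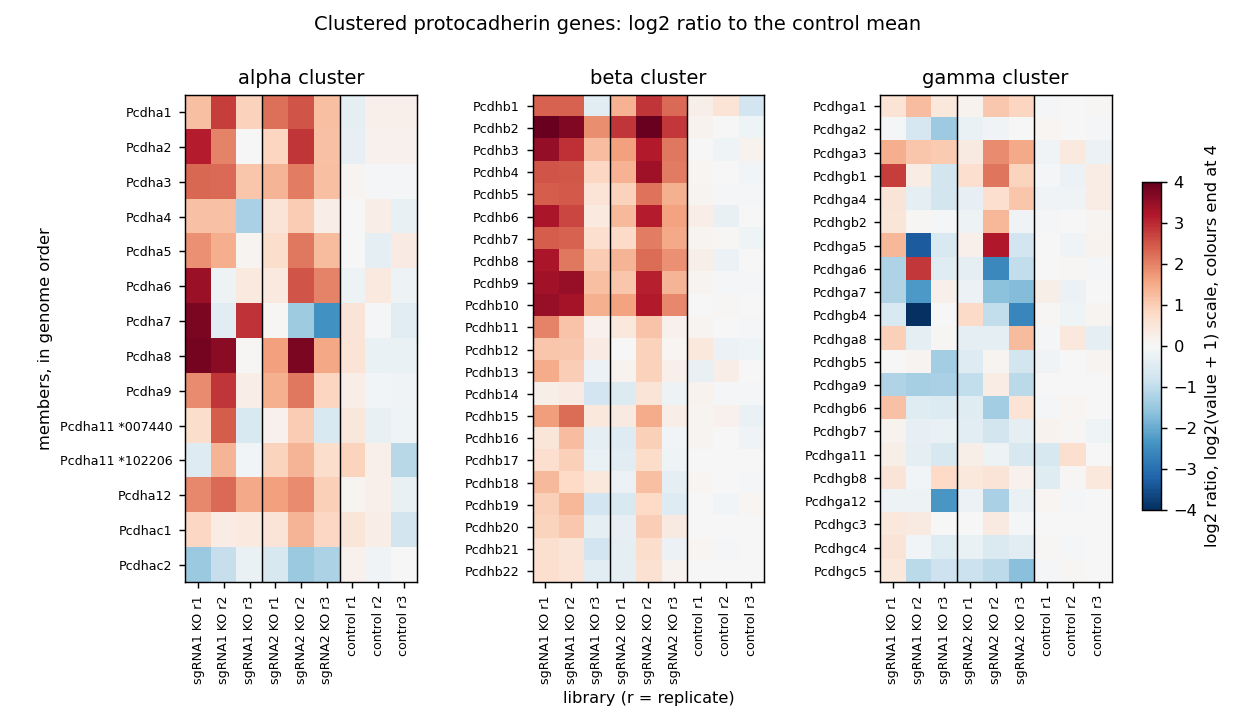
Log2 ratio of each library to the control mean, on the log2(value + 1) scale, for the 57 members in genome order within the alpha, beta and gamma clusters; columns are sgRNA1 KO, sgRNA2 KO and control libraries, and the 2 Pcdha11 gene IDs are marked by their last digits. Pcdhb2 to Pcdhb10 form a block that is high in KO libraries, most of all in sgRNA1 KO replicates 1 and 2 and sgRNA2 KO replicate 2, while the gamma cluster shows isolated high and low cells.

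The beta genes that rose form an unbroken run, Pcdhb2 to Pcdhb10, from 37294812 to 37414514 on chromosome 18. These genes encode beta isoforms, which have adhesive extracellular domains but lack the cytoplasmic tail that alpha or gamma isoforms share. The log2 fold changes in the run ran from 1.64 for Pcdhb7 to 3.19 for Pcdhb2, with adjusted p from 0.00124 to 0.0223 in limma. None of the 13 other beta genes passed, and their values ran from 1.8 for Pcdhb1 (adjusted p = 0.0568 in limma) down to -0.08 for Pcdhb14. The value of Pcdhb1 exceeded those of Pcdhb5 (1.65) and Pcdhb7 within the run. For Pcdhb11 (0.84) and Pcdhb15 (1.07) all 6 KO libraries lay above all controls. With sgRNA1 alone Pcdhb15 was called higher (1.43, adjusted p = 0.0466 in limma). The ends of the run thus depend on the threshold.

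Pcdhb2 had normalized read counts of 962, 802 and 223 in sgRNA1 KO replicates 1, 2 and 3 and of 445, 963 and 440 in sgRNA2 KO replicates 1, 2 and 3, against 68, 62 and 54 in the controls. Every KO library was above every control, and the lowest was sgRNA1 KO replicate 3. Its log2 fold change of 3.19 (SE 0.44, adjusted p = 0.00124 in limma) was the largest among the members tested. Pcdhb10 stood at 2193, 1979 and 524 in sgRNA1 KO libraries and at 595, 1774 and 748 in sgRNA2 KO libraries, against 193, 201 and 191 in the controls. Again the groups did not overlap, and the same libraries, sgRNA1 KO replicates 1 and 2 and sgRNA2 KO replicate 2, were highest (log2 fold change 2.49, SE 0.48, adjusted p = 0.0048 in limma).

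Pcdhb3 was read at 1182, 793 and 245 in sgRNA1 KO libraries and 325, 947 and 453 in sgRNA2 KO libraries, against 106, 92 and 114 in the controls, a log2 fold change of 2.43 (SE 0.47, adjusted p = 0.00483 in limma). Pcdhb4 was read at 610, 586 and 186 in sgRNA1 KO libraries and 276, 1115 and 452 in sgRNA2 KO libraries, against 112, 107 and 97 in the controls, a log2 fold change of 2.11 (SE 0.47, adjusted p = 0.00841 in limma). The groups did not overlap for either gene, and sgRNA2 KO replicate 2 was the highest library for Pcdhb4 but not for Pcdhb3. Pcdhb9 rose with a log2 fold change of 2.26, Pcdhb6 with 2.07 and Pcdhb8 with 1.97. The call for Pcdhb6 was lost without any 1 of the controls (adjusted p up to 0.0897 in limma), and that for Pcdhb9 without control replicate 2 or 3 (0.0608 and 0.0578 in limma).

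Per kb of exon, Pcdhb5 was the highest beta gene in every library. Its normalized read count per kb was 1037.9, 1060.8 and 286.8 in sgRNA1 KO libraries and 371.7, 871.6 and 517.4 in sgRNA2 KO libraries, against 208.5, 187.6 and 188.1 in the controls. It took 14.3 to 17.6% of the summed beta level per kb in KO libraries and 11.7 to 12.1% in controls, so all KO shares lay above all control shares. Its count rose with a log2 fold change of 1.65 (SE 0.41, adjusted p = 0.0129 in limma), a call lost without control replicate 2 or 3 (adjusted p = 0.055 and 0.0527 in limma). Pcdhb7, with a log2 fold change of 1.64 whose call was lost without control replicate 3 (adjusted p = 0.0543 in limma), was among the 3 highest beta genes per kb in all 6 KO libraries and in no control, where Pcdhb16 and Pcdhb11 followed Pcdhb5.

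The difference between KO and control narrowed along the beta cluster. For the first 11 genes, Pcdhb1 to Pcdhb11, the median log2 ratio to the control mean was 3.28, 2.47 and 0.82 in sgRNA1 KO replicates 1, 2 and 3 and 1.35, 3.10 and 1.83 in sgRNA2 KO replicates 1, 2 and 3. For the last 11 genes, Pcdhb12 to Pcdhb22, it was 0.90, 0.98 and -0.35 in sgRNA1 KO libraries and -0.38, 0.93 and -0.11 in sgRNA2 KO libraries. The median of the first genes thus lay above that of the last in each of the 6 KO libraries, and in 3 of them the median of the last lay under the control mean. Spearman's rho between genome order and log2 ratio ran from -0.86 to -0.62 over the 22 genes in the KO libraries, a description over neighbouring genes that share each library, and the same controls enter all 6 values. In the control libraries, each set against the mean of which it is part, rho was -0.50, -0.01 and 0.26.

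**Figure D2:**
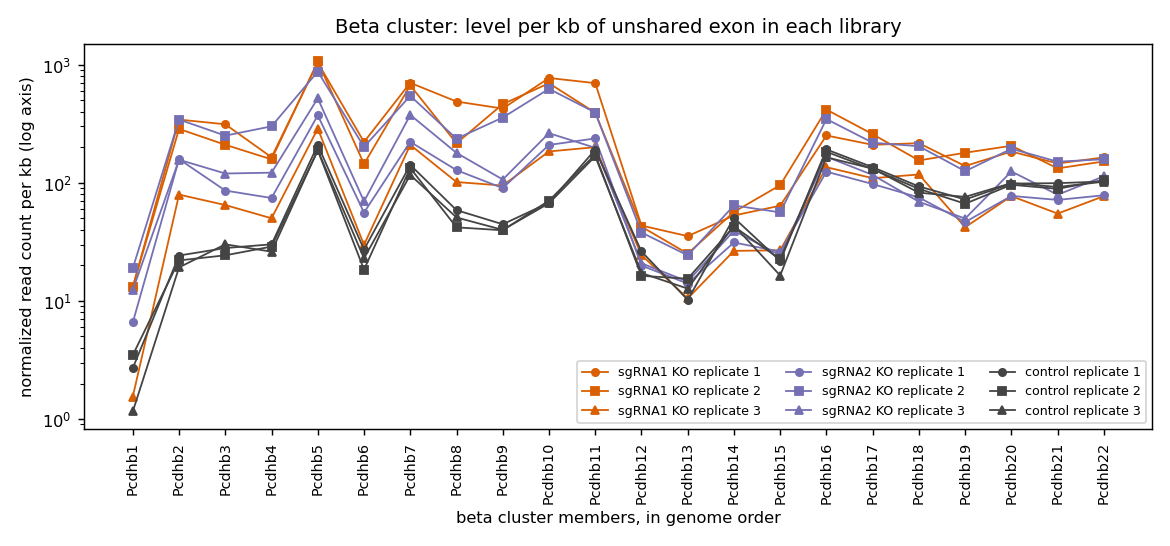
Normalized read count per kb of exon not shared with another gene (log axis) for the 22 beta genes in genome order, with a line for each of the 9 libraries. From Pcdhb2 to Pcdhb10 the KO lines lie above the control lines, with sgRNA1 KO replicates 1 and 2 and sgRNA2 KO replicate 2 highest; from Pcdhb14 to Pcdhb22 the other 3 KO libraries lie among or under the controls for most genes.

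Summed over the cluster, the beta level per kb was 4270.7 ± 2082.4 in KO (SD, n = 6) and 1628.6 ± 83.2 in control libraries (SD, n = 3), 2.62 times as high, and all 6 KO libraries lay above all controls. By library it was 4.09, 3.69 and 1.23 times the control mean in sgRNA1 KO libraries and 1.41, 3.51 and 1.80 times in sgRNA2 KO libraries. The KO libraries therefore spanned a wide range, with the lowest values in the 2 libraries that lay nearest the controls over all genes. In exon bases that no other gene shares, 0.0 to 9.52% of the 50-base windows of a beta gene occur in transcripts of other genes. Reads of these bases that 2 beta genes could share were thus few. Such bases are 36.5 (Pcdhb12) to 100% of the exon bases of a beta gene. The share of windows found elsewhere was 2.06 to 8.75% for Pcdhb2 to Pcdhb10 and 1.8 to 5.47% for Pcdhb12 to Pcdhb22.

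Alternate alpha isoforms, whose shared cytoplasmic tail links to actin regulators, were also higher in KO libraries. Per kb, their summed level was 4.50, 5.41 and 1.81 times the control mean in sgRNA1 KO libraries and 2.47, 4.08 and 1.93 times in sgRNA2 KO libraries, above all controls in all 6. Pcdha8 had counts of 67, 58 and 4 in sgRNA1 KO libraries and 14, 65 and 13 in sgRNA2 KO libraries, against 6, 3 and 3 in the controls. The groups overlapped through sgRNA1 KO replicate 3, and limma gave a log2 fold change of 2.41 (SE 0.82, adjusted p = 0.0423), a call lost under 8 of its 17 alternatives.

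Pcdha3 had counts of 608, 593 and 271 in sgRNA1 KO libraries and 317, 514 and 287 in sgRNA2 KO libraries, against 135, 118 and 119 in the controls (log2 fold change 1.71, SE 0.30, adjusted p = 0.00318 in limma). Pcdha12 had counts of 157, 201 and 118 in sgRNA1 KO libraries and 129, 153 and 80 in sgRNA2 KO libraries, against 44, 47 and 33 in the controls (log2 fold change 1.69, SE 0.28, adjusted p = 0.00265 in limma). For both genes all KO libraries lay above all controls. Per kb, Pcdha3, Pcdha9 and Pcdha12 were the 3 highest alternate alpha isoforms in every library, KO and control alike. The alpha isoforms resemble each other, and up to 25.45% of the unshared 50-base windows of an alternate alpha gene (Pcdha7) occur in other genes, so how the counting split reads among them is uncertain.

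Pcdhac2, the last C-type isoform of the alpha cluster, was the 1 member that fell. It had counts of 229, 345 and 538 in sgRNA1 KO libraries and 414, 233 and 270 in sgRNA2 KO libraries, against 731, 583 and 640 in the controls. All KO libraries lay below all controls, with sgRNA1 KO replicate 3 and sgRNA2 KO replicate 1 closest to them. Limma called it with a log2 fold change of -1.01 (SE 0.28, adjusted p = 0.0177), and the call was lost when any 1 control was left out (adjusted p = 0.0547 to 0.0725 in limma). Pcdhac1, the other alpha C-type isoform, stood at 69, 48 and 51 in sgRNA1 KO libraries and 55, 100 and 69 in sgRNA2 KO libraries, against 54, 46 and 23 in the controls, with overlapping groups and no call (log2 fold change 0.70, adjusted p = 0.109 in limma). Alternate and C-type alpha isoforms therefore had opposite summed differences per kb, 3.37 times the control level for the alternate and 0.594 times for the C-type isoforms. The C-type sum was mostly Pcdhac2, with a control mean per kb of 215.1 against 16.0 for Pcdhac1. Its fall is thus that of 1 gene and was not shared by Pcdhac1.

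**Figure D3:**
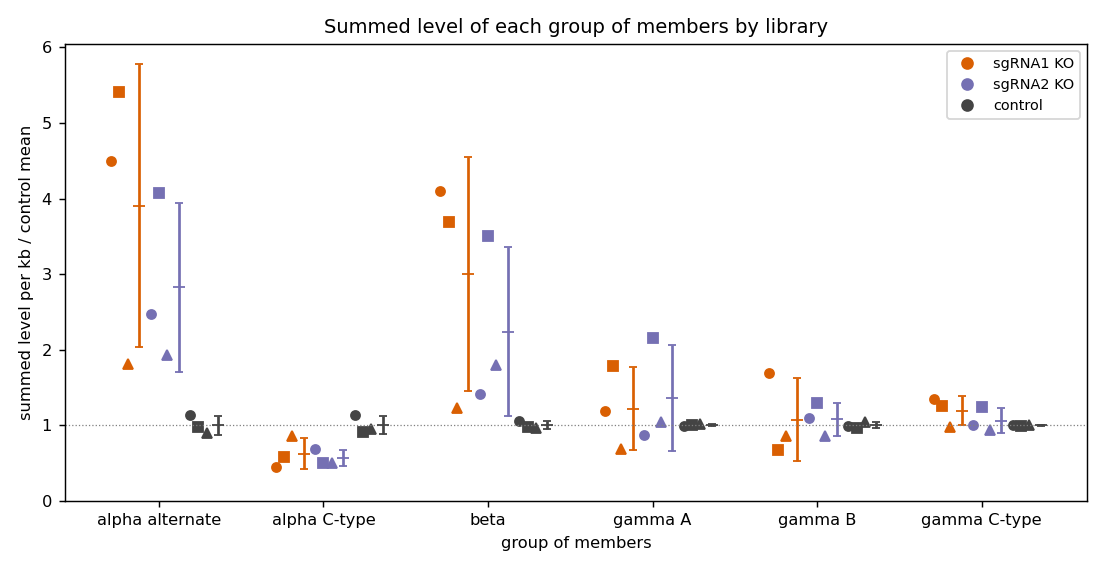
Summed normalized read count per kb of each group of members, divided by the control mean, for sgRNA1 KO, sgRNA2 KO and control libraries (circle, square and triangle are replicates 1, 2 and 3, and bars are mean and SD, n = 3). Alternate alpha and beta isoforms lie above all controls in all 6 KO libraries, and the gamma groups lie on both sides. The alpha C-type sum, most of it Pcdhac2, lies below all controls.

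In the gamma cluster most of the level came from Pcdhgc3, a C-type isoform. Per kb it made up 86.5 to 90.8% of the summed gamma level in KO libraries and 87.3 to 87.6% in controls. This share rests on dividing by unshared exon bases, which are 33.1% of the exon bases of Pcdhgc3. How reads of the shared exons were counted is not known. Its counts were 18383, 17457 and 13582 in sgRNA1 KO libraries and 13995, 17490 and 13016 in sgRNA2 KO libraries, against 13776, 13551 and 13678 in the controls. KO values lay on both sides of the controls, and no difference was called (log2 fold change 0.18, SE 0.13, adjusted p = 0.292 in limma). Exons of Pcdhgc3 overlap those of BC037039, and the strand used in counting is not given in the sources used here.

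The other gamma C-type isoforms were not called either. Pcdhgc5 had counts of 789, 282 and 335 in sgRNA1 KO libraries and 328, 289 and 185 in sgRNA2 KO libraries, against 568, 616 and 599 in the controls. Thus 5 KO libraries lay below the controls and sgRNA1 KO replicate 1 lay above them (log2 fold change -0.84, SE 0.36, adjusted p = 0.0886 in limma), and without that library the adjusted p was 0.0064. Pcdhgc4, which is needed for neuron survival in mice, had counts of 715 to 1540 in KO libraries with a median of 834.5, against 1104, 1016 and 1073 in the controls (log2 fold change -0.23, adjusted p = 0.44 in limma). The file gives its row (ENSMUSG00000023036) the symbol Pcdhga8, which another row carries too, and the gene ID decided here.

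The alternate gamma isoforms, of types A and B, differed from one KO library to another rather than in a shared direction. Only Pcdhga3 (log2 fold change 1.23, adjusted p = 0.015 in limma) and Pcdhga1 (0.71, adjusted p = 0.0417 in limma) were called, and both were higher. Over the alternatives their adjusted p reached 0.0716 for Pcdhga3 and 0.125 for Pcdhga1. Pcdhga6 had counts of 80, 1367 and 137 in sgRNA1 KO libraries and 144, 31 and 96 in sgRNA2 KO libraries, against 187, 199 and 185 in the controls. Only sgRNA1 KO replicate 2 lay above the controls, and the other 5 KO libraries lay below them. Pcdhga5, its neighbour upstream, had counts of 404, 15 and 104 in sgRNA1 KO libraries and 185, 1475 and 94 in sgRNA2 KO libraries, against 160, 145 and 179 in the controls. Here sgRNA2 KO replicate 2 was the high library and sgRNA1 KO replicate 2 the lowest, so these KO libraries had opposite members of the pair high and low.

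Pcdhga6 alone took 54.5% of the alternate gamma level per kb in sgRNA1 KO replicate 2, and Pcdhga5 took 46.9% in sgRNA2 KO replicate 2. In the controls Pcdhga6 took 10.8 to 12% and Pcdhga5 took 8.98 to 10.7%. The effective number of alternate gamma isoforms, the inverse Simpson index of these shares, was 10.8, 3.09 and 12.3 in sgRNA1 KO libraries and 11.9, 4.0 and 10.3 in sgRNA2 KO libraries, against 11.8, 12.5 and 12.2 in the controls. The same 2 libraries thus had the lowest values, and sgRNA1 KO replicate 3 and sgRNA2 KO replicate 1 lay among the controls. Reads of Pcdhga5 and Pcdhga6 are little confused by likeness, with 0.6 and 0.27% of their unshared windows found in other genes.

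**Figure D4:**
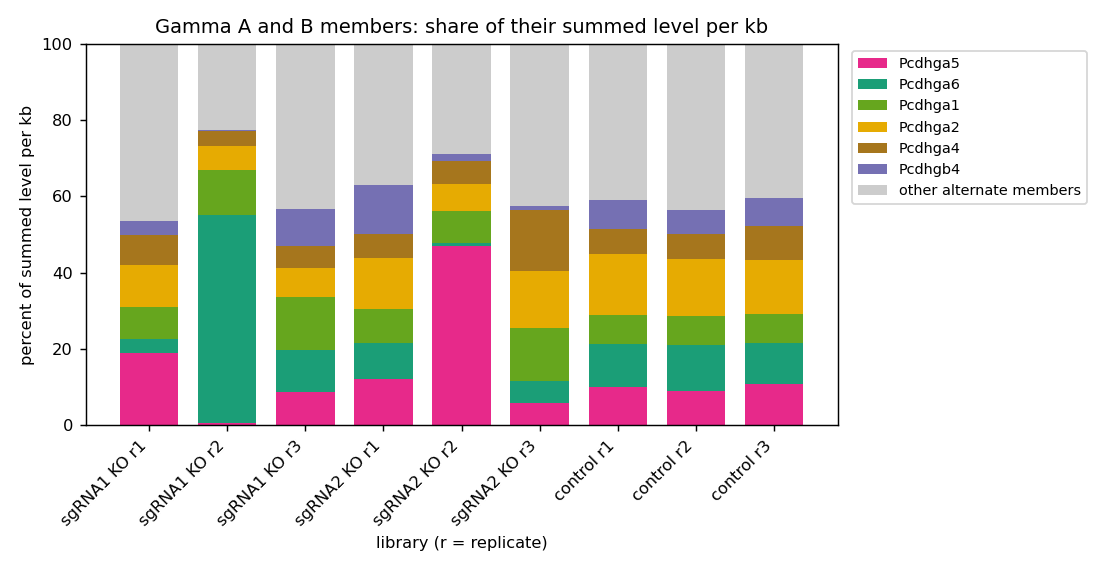
Share of the summed normalized read count per kb over the 18 gamma A and B members, in percent, for each KO library and then each control. Pcdhga6 takes 54.5% in sgRNA1 KO replicate 2 and Pcdhga5 takes 46.9% in sgRNA2 KO replicate 2, whereas neither exceeds 12% in a control.

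Pcdhgb4, a type B isoform, had counts of 107, 8 and 162 in sgRNA1 KO libraries and 277, 82 and 26 in sgRNA2 KO libraries, against 168, 145 and 175 in the controls, so KO libraries lay on both sides of the controls (log2 fold change -1.26, SE 0.93, adjusted p = 0.296 in limma). Pcdhga12 had counts of 123, 123 and 27 in sgRNA1 KO libraries and 120, 57 and 117 in sgRNA2 KO libraries, against 149, 133 and 142 in the controls. All KO libraries lay below the controls for Pcdhga12, sgRNA1 KO replicate 3 the furthest, and it was not called (log2 fold change -0.76, adjusted p = 0.22 in limma). Pcdhga9 had counts of 72, 66 and 68 in sgRNA1 KO libraries and 84, 208 and 79 in sgRNA2 KO libraries, against 165, 171 and 169 in the controls. The sgRNA1 KO libraries lay below the controls, and Pcdhga9 was the 1 member called lower with that guide (log2 fold change -1.28, adjusted p = 0.0234 in limma). The call was lost without sgRNA1 KO replicate 1 or 2 (adjusted p = 0.0677 and 0.0691 in limma) and without any 1 of the controls (0.0639 to 0.0799).

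Across pairs of libraries, the alternate gamma isoforms had Pearson correlations of log2 values of 0.300 to 0.844 between KO libraries and 0.963 to 0.981 between controls (n = 18 genes). For the beta cluster these were 0.927 to 0.982 between KO libraries and 0.988 to 0.994 between controls (n = 22 genes). For the alternate alpha isoforms they were 0.663 to 0.976 between KO libraries and 0.942 to 0.973 between controls (n = 12 genes). Low values between KO libraries were thus not confined to the gamma cluster. These correlations are descriptions across genes within the same libraries, and genes are not independent replicates. The median SD of a member among KO libraries was 0.83 for alpha, 0.78 for beta and 0.62 for gamma on the log2 scale, against 0.36 for all genes tested. Among controls it was 0.32 for alpha, 0.11 for beta and 0.13 for gamma, against 0.09 for all genes tested.

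Which isoforms rose or fell most in each KO library was read with a rule that takes no average. A member was called on where its count was at least 50 and at least 4 times that of the highest control, and off where all controls had at least 50 and the library had at most 0.25 of the lowest control. The rule sets no upper limit on the controls, so on means a rise of at least 4 times and not a start from silence. Pcdhb5, for example, was on in some libraries with 663 to 737 in the controls. By this rule 14 members were on in sgRNA1 KO replicate 1 (background over all 21899 genes 2.42%), 15 in replicate 2 (2.43%) and 1 in replicate 3 (0.384%). In sgRNA2 KO, 1 was on in replicate 1 (0.479%), 11 in replicate 2 (1.63%) and 2 in replicate 3 (1.47%). The share of members on was above the background in each library, with 1 or 2 members behind it in 3 of them.

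Beta genes made up most of these calls. Over all KO libraries 20 members were ever on, of which 7 were alpha, 10 beta and 3 gamma. Pcdhb2 was on in 5 libraries, all but sgRNA1 KO replicate 3, and Pcdhb4 was on in 4. In sgRNA1 KO replicate 1 the beta genes on were Pcdhb2 to Pcdhb10 without a gap. The run was broken in sgRNA1 KO replicate 2, where Pcdhb8 was not on and Pcdhb15, outside the run, was. It was also broken in sgRNA2 KO replicate 2, where Pcdhb7 was not on. Each of the 3 gamma genes was on in 1 library, Pcdhgb1 in sgRNA1 KO replicate 1, Pcdhga6 in sgRNA1 KO replicate 2 and Pcdhga5 in sgRNA2 KO replicate 2.

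The 1 member on in sgRNA1 KO replicate 3 was Pcdha7, at 77. It was also on in sgRNA1 KO replicate 1, at 145, and stood at 7 in sgRNA1 KO replicate 2 and at 10, 3 and 1 in sgRNA2 KO libraries, against 14, 9 and 7 in the controls. The 2 high libraries are both from sgRNA1, and the other 4 KO libraries lay within or below the range of the controls. For KO against control the log2 fold change of 0.41 was not called (SE 1.25, adjusted p = 0.809 in limma).

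No member was off in sgRNA1 KO replicate 1 (background 2.8%) or in sgRNA2 KO replicate 1 (0.721%). Pcdhga5 and Pcdhgb4 were off in sgRNA1 KO replicate 2 (2.77%), Pcdhga12 in sgRNA1 KO replicate 3 (0.918%), Pcdhga6 in sgRNA2 KO replicate 2 (1.89%) and Pcdhgb4 in sgRNA2 KO replicate 3 (1.18%). All 4 members ever off were gamma genes, and 35 members were neither on nor off in any library. Only members with at least 50 in every control could be called off. In a control library 3 to 4 alpha, 18 to 20 beta and 14 to 15 gamma genes had that count, so few alpha genes could be off. These counts depend on the fold required, and with 2 times in place of 4 the members on were 24 (background 8.58%), 21 (7.7%) and 7 (2.43%) in sgRNA1 KO replicates 1, 2 and 3. In sgRNA2 KO replicates 1, 2 and 3 they were then 10 (2.22%), 23 (6.49%) and 11 (5.74%).

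By a count of at least 50, a rule that uses no control, 38 to 45 members were expressed in KO libraries and 35 to 38 in controls. Over all genes 57.0 to 58.6% met this in KO libraries and 56.8 to 57.0% in controls. Alpha genes expressed were 5 to 9 in KO libraries and 3 to 4 in controls, beta genes 19 to 20 and 18 to 20, and gamma genes 12 to 16 and 14 to 15. In the bulk libraries, fewer cells that use an isoform and less of its RNA per cell cannot be told apart.

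Each guide was also set against the same 3 controls. With sgRNA1, 13 members were higher (background 17.1%) and 1 was lower (18.9%) by limma, and with sgRNA2, 8 were higher (11.4%) and 1 was lower (10.7%). Pcdhb2 had log2 fold changes of 3.17 with sgRNA1 (adjusted p = 0.00614 in limma) and 3.21 with sgRNA2 (adjusted p = 0.00676 in limma). Without sgRNA1 KO replicate 3 and sgRNA2 KO replicate 1, 27 members were higher (background 24.6%) and 3 lower (27.0%) with sgRNA1, and 19 were higher (18.7%) and 3 lower (20.7%) with sgRNA2. With single libraries left out, the members higher with sgRNA1 numbered 25 without sgRNA1 KO replicate 3 (background 23.6%), 5 and 7 without its replicates 1 and 2 (6.19 and 7.57%), and 7, 4 and 5 without control replicates 1, 2 and 3 (9.01, 4.3 and 5.11%). The members higher with sgRNA2 numbered 16 without sgRNA1 KO replicate 3 (16.5%), 1 without sgRNA2 KO replicate 2 (4.55%), and 2, 1 and 1 without control replicates 1, 2 and 3 (4.35, 2.08 and 2.22%). The background thus moved with the same libraries, and with sgRNA2 the share of members higher was near or below it in the last 4 of these fits.

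Between the guides, 0 members were called higher and 0 lower in sgRNA1 KO than in sgRNA2 KO libraries by limma (background 0.0% each way). At an unadjusted p under 0.05, 1 member was higher and 0 were lower of 53 tested, and 270 genes were higher and 204 lower of 15827. The member was Pcdha7, with a log2 difference of 3.34 (SE 1.02, adjusted p = 0.778 in limma). Pcdhga2 had the counts 233, 156 and 90 in sgRNA1 KO libraries and 205, 226 and 244 in sgRNA2 KO libraries, with no call between the guides, and 261, 243 and 239 in the controls.

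Regulators of the clusters were read from a list of 28 genes. By limma 4 were higher (background 19.1%) and 13 lower (20.2%) in KO than in control libraries, with a median log2 fold change of -0.27 against -0.01 for all genes tested. Smchd1, a chromatin protein that holds down clustered protocadherin genes in mice, had counts of 3926, 3682 and 5681 in sgRNA1 KO libraries and 6126, 4502 and 3737 in sgRNA2 KO libraries, against 8349, 8888 and 8854 in the controls. It lay below all controls in all 6 KO libraries (log2 fold change -0.95, SE 0.18, adjusted p = 0.00414 in limma). Dnmt1, the maintenance DNA methyltransferase, had counts of 4269, 4677 and 14527 in sgRNA1 KO libraries and 15259, 6288 and 9544 in sgRNA2 KO libraries, against 20268, 21470 and 21754 in the controls. No KO library reached the controls, and the 3 lowest were sgRNA1 KO replicates 1 and 2 and sgRNA2 KO replicate 2, but the call (log2 fold change -1.40, adjusted p = 0.0238 in limma) was lost without any 1 of the controls (adjusted p = 0.0648 to 0.081 in limma).

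Tet2, which oxidises methylated DNA, had counts of 4118, 4881 and 2146 in sgRNA1 KO libraries and 1954, 3858 and 2108 in sgRNA2 KO libraries, against 1458, 1257 and 1366 in the controls. All KO libraries lay above all controls, and the 3 highest were the 3 in which Dnmt1 was lowest (log2 fold change 1.13, adjusted p = 0.0175 in limma, lost without control replicate 2 or 3 at 0.0738 and 0.0621). Tet1, a related enzyme, rose by less (log2 fold change 0.57, adjusted p = 0.0221 in limma), and it missed without the 2 KO libraries nearest the controls (0.48, adjusted p = 0.0516) or without any 1 of the controls (adjusted p = 0.0618 to 0.0901). Ezh2, the catalytic subunit of Polycomb repressive complex 2, fell with a log2 fold change of -0.97 (adjusted p = 0.00803 in limma). Their part in the values of the clustered protocadherins was not tested.

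Ctcf, whose protein binds the promoters of the clusters, had counts of 6118, 6237 and 7893 in sgRNA1 KO libraries and 7962, 7090 and 6040 in sgRNA2 KO libraries, against 8481, 8740 and 8781 in the controls. All KO libraries lay below the controls, and the log2 fold change of -0.34 was just past the threshold (adjusted p = 0.044 in limma), a call lost without any 1 of the controls, without sgRNA1 KO replicate 1 or 2 and without sgRNA2 KO replicate 2 (adjusted p = 0.0685 to 0.135 in limma). It was also lost by quantile normalization (0.0936) and without the filter on low values (0.0566). Rad21, a cohesin subunit, was not called (log2 fold change -0.19, adjusted p = 0.385 in limma), nor was the DNA methyltransferase gene Dnmt3b (-0.18, adjusted p = 0.358 in limma). Other genes of cohesin or its handling were called lower, with all 6 KO libraries below all controls, namely the subunit genes Smc3 (-0.66, adjusted p = 0.0209 in limma) and Stag1 (-0.46, 0.031), the regulators Pds5a (-0.83, 0.00278) and Pds5b (-0.75, 0.00717) and the release factor Wapl (-0.48, 0.0152). The other higher regulators were the cohesin loader gene Mau2 (0.51, adjusted p = 0.0238 in limma) and the DNA methyltransferase gene Dnmt3a (0.35, 0.0325). The calls of Smc3, Stag1, Mau2 and Dnmt3a were lost without any 1 of the controls (adjusted p = 0.059 to 0.119 in limma), and that of Wapl without control replicate 2 or 3 (0.0679 and 0.0639). That of Stag1 was also lost by quantile normalization (0.0945) and without both KO libraries nearest the controls (0.0585), and that of Dnmt3a with the replicate block (0.0566) and without sgRNA1 KO replicate 1 or sgRNA2 KO replicate 2 (0.0533 and 0.0524).

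**Figure D5:**
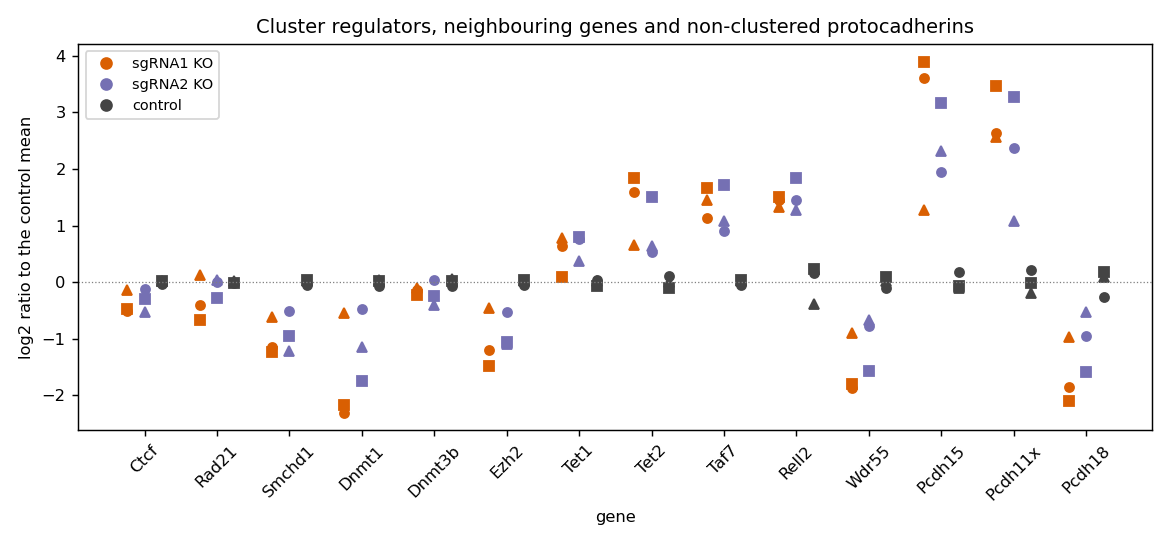
Log2 ratio to the control mean, on the log2(value + 1) scale, of regulators (Ctcf to Tet2), neighbouring genes (Taf7, Rell2, Wdr55) and non-clustered protocadherins (Pcdh15, Pcdh11x, Pcdh18) in sgRNA1 KO, sgRNA2 KO and control libraries (circle, square and triangle are replicates 1, 2 and 3). Ctcf, Smchd1, Dnmt1, Ezh2, Wdr55 and Pcdh18 lie below all controls in all 6 KO libraries. Tet1, Tet2, Taf7, Rell2, Pcdh15 and Pcdh11x lie above all controls in all 6.

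Among the protein-coding genes within 500 kb of the clusters or between them, 5 were higher (background 19.1%) and 9 lower (20.2%) of 24 tested by limma, with a median log2 fold change of 0.01. The 5 higher genes were near the background share, and the 9 lower genes were more than theirs. Taf7, which encodes a subunit of the general transcription factor TFIID, lies between the beta and gamma clusters, from 37640491 to 37644204 on chromosome 18. It had counts of 594, 860 and 737 in sgRNA1 KO libraries and 504, 896 and 573 in sgRNA2 KO libraries, against 261, 278 and 273 in the controls, and it rose in all 6 KO libraries (log2 fold change 1.32, SE 0.20, adjusted p = 0.00184 in limma). Beyond the gamma cluster Rell2 rose (log2 fold change 1.48, adjusted p = 0.00181 in limma). Before the alpha cluster Cd14, a receptor for bacterial lipopolysaccharide, fell (-3.09, adjusted p = 0.0156 in limma), as did Wdr55 (-1.26, adjusted p = 0.00905 in limma). The call for Cd14 was lost without control replicate 2 or 3 (adjusted p = 0.0636 and 0.0581).

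Non-clustered protocadherins lie outside the clusters as separate genes. Of 9 tested, 4 were higher (background 19.1%) and 1 lower (20.2%) in KO libraries by limma, with a median log2 fold change of 0.57. Pcdh15, part of the tip link of hair cells in the inner ear, had counts of 12127, 14863 and 2410 in sgRNA1 KO libraries and 3855, 8898 and 4992 in sgRNA2 KO libraries, against 1124, 952 and 924 in the controls (log2 fold change 2.70, SE 0.52, adjusted p = 0.00471 in limma). Every KO library lay above every control, and the 3 highest were again sgRNA1 KO replicates 1 and 2 and sgRNA2 KO replicate 2. Pcdh11x, on the X chromosome, rose with a log2 fold change of 2.57 (adjusted p = 0.00289 in limma), and Pcdh18 fell with -1.33 (adjusted p = 0.0123 in limma), which was lost without control replicate 2 or 3 (0.0614 and 0.0544).

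The related lists are read against the same background, 19.1% higher and 20.2% lower, and each of their counts lay within a few genes of it. Of 8 tested Celsr and Fat genes 2 were higher and 1 lower by limma (median 0.25), among them Celsr3, a planar polarity cadherin of axons (log2 fold change 1.46, adjusted p = 0.00491), Dchs1 (1.25, adjusted p = 0.0364) and Fat1 (-0.30, adjusted p = 0.0192). Of 11 classical cadherins 2 were higher and 3 lower (median -0.14), with Cdh1, the epithelial cadherin, at 6 to 373 in KO and 1 to 3 in control libraries (log2 fold change 4.54, adjusted p = 0.02 in limma). Cdh10 rose (0.78), and Cdh6 (-1.31) and Cdh22 (-1.58) fell. Of 22 partners of the clustered protocadherins 6 were higher and 2 lower (median 0.09). The kinase gene Ptk2, whose product is held in check by clustered protocadherins, fell (-0.69, adjusted p = 0.0024 in limma), its relative Ptk2b rose at low counts (1.83, adjusted p = 0.0135 in limma), Psen2 of gamma-secretase rose (0.78) and Adam10, a protease that cuts protocadherins, fell (-0.40, adjusted p = 0.0236 in limma). Leaving out 1 of the controls ended the calls of Dchs1 (adjusted p up to 0.106 in limma), Fat1 (0.0926), Cdh1 (0.0772), Cdh10 (0.0592), Ptk2b (0.0599), Psen2 (0.0746) and Adam10 (0.0945), and that of Dchs1 was also lost without sgRNA1 KO replicate 2 (0.0632) or sgRNA2 KO replicate 2 (0.0696).

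Markers of cell types were read beside these results. Neuron markers summed to 48958 to 126650 in KO and 45984 to 47061 in control libraries, most of it Map2, and 2 of 7 tested were higher (background 19.1%) and 1 lower (20.2%) by limma. Map2, a microtubule protein, had counts of 112682, 123669 and 58921 in sgRNA1 KO libraries and 59360, 94591 and 46736 in sgRNA2 KO libraries, against 43613, 42431 and 43085 in the controls. The 3 highest were sgRNA1 KO replicates 1 and 2 and sgRNA2 KO replicate 2, the libraries with most beta RNA and those furthest from the controls over all genes. The log2 fold change of Map2 was 0.85 (adjusted p = 0.0478 in limma). This call was lost without any 1 of the controls (0.112 to 0.132) and without any 1 of these 3 libraries (0.0695 to 0.0887). Syn1 rose (0.62, adjusted p = 0.0146 in limma, lost without control replicate 1 or 2 at 0.0511 and 0.0721) and Gap43 fell (-3.51, adjusted p = 0.00168 in limma), while Snap25, a synaptic protein gene of mature neurons, was near 0 throughout, at 2 to 10 in KO and 1 to 4 in control libraries. Dcx, a microtubule gene of young neurons, had counts of 110, 159 and 2 in sgRNA1 KO libraries and 34, 72 and 39 in sgRNA2 KO libraries, against 6, 5 and 4 in the controls. It lay above all controls in 5 KO libraries and below them in sgRNA1 KO replicate 3, and was not called (log2 fold change 2.82, adjusted p = 0.056 in limma). Tubb3, a neuronal tubulin gene, had counts of 1369, 1851 and 119 in sgRNA1 KO libraries and 192, 301 and 170 in sgRNA2 KO libraries, against 344, 212 and 262 in the controls. Here sgRNA1 KO replicates 1 and 2 were high and the groups overlapped (log2 fold change 0.50, adjusted p = 0.658 in limma).

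Among oligodendrocyte markers Cldn11, a tight junction gene of myelin, was lower in KO libraries by limma (log2 fold change -2.02, adjusted p = 0.00229). The defining markers Mog and Mag were at 0 to 4 in KO and 0 to 3 in control libraries. Stem cell markers summed to 251015 to 364476 in KO and 362533 to 404549 in control libraries, with 2 of 10 higher (Sox2 and Egfr) and 3 lower (Nes, Cd44 and Vim) by limma, near the background of 19.1% and 20.2%. The call of Egfr was lost without any 1 of the controls (adjusted p = 0.0579 to 0.0755 in limma).

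The other lists were at low levels. Microglia markers summed to 34 to 62 in KO and 29 to 34 in control libraries, with P2ry12 at 11 to 52 and 11 to 19 and Tmem119 at 4 to 25 and 2 to 5. Endothelial markers summed to 42 to 204 in KO and 139 to 186 in control libraries, with Kdr lower (adjusted p = 0.0421 in limma, up to 0.131 without 1 of the controls, 0.059 without sgRNA1 KO replicate 1 and 0.0532 without sgRNA2 KO replicate 2), and pericyte and fibroblast markers to 19 to 39 and 95 to 113, with Rgs5 lower (log2 fold change -4.25, adjusted p = 0.000326 in limma). The part of these cell type markers in the values of the clustered protocadherins was not tested.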

How the data were processed

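Each value of the deposited table is a score, namely a read count that the authors scaled by 1 factor per library and rounded, as the values show. Reads were aligned and counted on build mm10 with tools that, per the submitters' processing notes, included featureCounts, DESeq2 and STAR 2.4.1d; strand, multi-mapping settings and annotation release are not given in the sources used here. Raw counts were not used here, so values were tested as log2(value + 1) by a two-sided limma test (limma 3.58.1 in R 4.3.3) that models the trend of variance with level, Benjamini-Hochberg adjusted over 15827 genes with a mean of at least 10. KO against control used 2 groups, and each guide used 1 fit with 3 groups. The added 1 understates folds of low counts.

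Levels per kb divide the score by exon bases that no other gene shares in GENCODE M21, which gave positions and order. Pcdhga10 has no such bases and was not analysed here. Members, lists and rules were chosen with earlier results of these data known. Genes named were the C-type isoforms, the largest calls in each comparison and list, the highest isoforms on and off in each library, and Ctcf, Rad21, Smchd1, Dnmt3b, Taf7 and Gpd1. Pcdha3, Pcdha5, Pcdha9, Pcdha12, Pcdhb1, Pcdhb11 to Pcdhb22, Pcdhga1, Pcdhga3, Pcdhgb1, the members not tested, Olig2, Prom1, Vim, Snap25, Dcx, Tubb3, Mog, Mag, Smc3, Stag1, Pds5a, Pds5b, Wapl, Mau2 and Dnmt3a were chosen after their values were seen. The total over oligodendrocyte markers is not reported here.

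Alternatives were pseudocounts of 0.5 and 5, no filter or a mean of 50, variance weights, median-of-ratios rescaling, quantile normalization, a replicate block, only the 6 libraries compared, other on and off thresholds, each library left out in turn, and both KO libraries nearest the controls left out. Figures used Python 3.11.15 with pandas 2.3.3, numpy 2.4.6 and matplotlib 3.10.9.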

Additional observations from a re-analysis of the deposited data

Results flagged for a closer look

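Among 22 members checked on the log2 scale in the 6 KO libraries, Pcdhga9 stood out in 1 library. Its normalized read count was 208 in sgRNA2 KO replicate 2, the highest value, against 66 to 84 in the other KO libraries and 165 to 171 in the controls. On the log2 scale the gap to its nearest neighbour took more of the range than Dixon's 95% critical value of 0.625 allows. Chance flags about 1 in 20 groups, so 1 of 22 is close to what chance gives. Without that library the log2 fold change of Pcdhga9 in KO against control was -1.18 (adjusted p = 0.00347 in limma), against -0.94 (adjusted p = 0.0535 in limma) with it. The check does not cover unlogged counts, on which other members also had 1 library far from the rest. Pcdhga6 stood at 1367 in sgRNA1 KO replicate 2 and at 31 to 144 in the other KO libraries. Pcdhga5 stood at 1475 in sgRNA2 KO replicate 2 and at 15 to 404 in the others.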

How the results depend on the processing

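Members higher in KO than control numbered 7 to 18 (16 with all) and members lower 0 to 2 (1 with all) with 1 library left out; for sgRNA1 these were 4 to 25 and 0 to 3, and for sgRNA2 1 to 16 and 0 to 2. Lower members in KO were 2 by quantile normalization, 4 with variance weights and 2 without both KO libraries nearest the controls. Variance weights gave 3 lower with sgRNA1 and 2 with sgRNA2. Without both libraries, 27 were higher and 3 lower with sgRNA1, and 19 and 3 with sgRNA2. With only the 6 libraries compared, 15 were higher and 3 lower with sgRNA2. The causes were not tested, beyond the fewer libraries in some fits.

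Members on, at 2 times the highest control, were 24 and 7 in sgRNA1 KO replicates 1 and 3 and 10, 23 and 11 in sgRNA2 KO replicates 1, 2 and 3. At 8 times they were 9, 4 and 0 in sgRNA1 KO libraries and 0, 6 and 0 in sgRNA2 KO, and with a count of 100 sgRNA1 KO replicate 3 had 0. Members off at 0.5 of the lowest control were 3, 4 and 3 in sgRNA1 KO replicates 1, 2 and 3 and 4 and 4 in sgRNA2 KO replicates 2 and 3. At 0.125 of it they were 0 in sgRNA1 KO replicate 3 and sgRNA2 KO replicates 2 and 3.

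The effective number of isoforms moved with its definition. Per kb of exon bases not shared, it was 2.80 in KO and 1.98 in control libraries over all members, 3.84 and 4.11 for alternate alpha, 12.8 and 13.8 for beta and 8.74 and 12.2 for alternate gamma isoforms. Over all members Pcdhgc3 took 52.9 to 69.6% of the level in KO and 70.0 to 71.3% in control libraries. Over the 52 members that are not C-type, the effective number went the other way. It was 20.1 in KO and 25.5 in control libraries, with all 6 KO libraries below all controls. Per kb of all exons it was 6.40 in KO and 3.70 in control libraries over all members, 3.51 for alternate alpha, 13.5 for beta and 11.6 for alternate gamma isoforms in controls. By Shannon entropy it was 7.75 and 5.09 over all members, 5.19 and 5.61 for alternate alpha and 15.9 and 16.3 for beta isoforms in KO and in control libraries, and 14.1 for alternate gamma isoforms in controls.

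The log2 fold change of Pcdha7, which was not called, ran from -0.26 to 0.98 with 1 library left out. It turned to -0.26 without sgRNA1 KO replicate 1, -0.08 without replicate 3 and -0.11 without both KO libraries nearest the controls. That of Pcdhga5, close to 0 and not called, ran from -0.64 to 0.66. It became 0.66 without sgRNA1 KO replicate 2, 0.12 without sgRNA1 KO replicate 3, 0.15 without sgRNA2 KO replicate 3, 0.08 without control replicate 3, 0.10 without both libraries and 0.04 with a pseudocount of 5.

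Deviations from the group means had r from -0.345 to 0.332 between libraries of the same replicate number. Between libraries of different numbers r ran from -0.525 to 0.523. Deviations from a mean of 3 libraries are tied to each other, so these values cannot settle whether the numbers pair libraries. With the replicate block 17 members were higher and 1 lower in KO, 15 and 1 with sgRNA1 and 7 and 1 with sgRNA2. With the block Ctcf (adjusted p = 0.0787 in limma) and Kdr (0.0573) missed the threshold.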
